A study of Mus musculus with 6 samples.

Results

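Translation initiation factors are the proteins that bring a messenger RNA, the initiator tRNA and the small ribosomal subunit together before the first peptide bond is made. Their mouse genes carry symbols that begin with Eif, and the members described here are the genes whose single symbol begins with Eif1 to Eif6, without the eIF2 kinases of the Eif2ak series. By this rule 43 of the 18193 genes on the arrays were initiation factor genes, read through 120 probe sets. Each gene was read through its brightest probe set by the mean of the 6 arrays, and the rule did not use the response to the knockdown.

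The arrays came from Oct4-Gip mouse embryonic stem cells, a line in which Oct4 regulatory sequences drive a reporter, grown in serum with LIF. In the 3 Panct1 knockdown samples the long noncoding RNA Panct1 was targeted by esiRNA, a pool of short interfering RNAs made by enzymatic digestion of a longer double strand, and the 3 Luciferase control samples received an esiRNA against Luciferase, which these cells lack. Each sample was 60000 cells transfected with 800 ng of esiRNA and collected after 72 hours, so the transfection itself is common to all. No probe set was named as Panct1, so its depletion was not measured here. Values are log2 signals, in which a difference of 1 is a 2-fold change.

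Initiation in outline runs through factors with separate tasks. eIF2, loaded with GTP, carries the initiator tRNA and is recharged by eIF2B, while eIF1, eIF1A and the large scaffold eIF3 hold the small subunit open for scanning. The cap of the mRNA is bound by eIF4E, which joins the scaffold eIF4G and the RNA helicase eIF4A in the complex eIF4F, and 4E-BPs compete with eIF4G for eIF4E. eIF5 triggers GTP hydrolysis on eIF2 once the start codon is found, and eIF5B joins the large subunit. In embryonic stem cells the 4E-BPs and the kinase mTOR, which inactivates them, are known regulators of protein output.

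Of the 43 genes, 7 passed the threshold, an adjusted p under 0.05 in limma over all 18193 genes: 2 rose, Eif4e3 and Eif4g3, and 5 fell, Eif4a2, Eif4a3, Eif2s3y, Eif2b4 and Eif3k. This is 16.3% of the members, against 24.2% of all genes, or 29.1% of the genes whose mean signal was at least 10, a bound chosen after the values were seen and met by 39 of the 43. Rises made up 4.65% of members (12.9% of all genes) and falls 11.6% (11.3% of all genes). The median difference between knockdown and control was 0.00 over the members and -0.02 over all genes, and the median size of the difference, regardless of sign, was 0.06 against 0.12. For 13 of the 43 genes, 30.2%, all knockdown arrays lay on one side of all controls, against 38.3% of all genes. Among members 12 had an unadjusted p under 0.05. The count of 7 fell to 3 without Panct1 knockdown replicate 2, without Luciferase control replicate 1 or without Luciferase control replicate 2. Eif4e3, Eif4g3 and Eif4a2 passed whichever array was left out. With p-values adjusted over all 45037 probe sets the count was 4, as Eif2s3y, Eif3k and Eif4a3 no longer passed (adjusted p = 0.0541, 0.0518 and 0.0685 in limma).

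**Figure D1:**
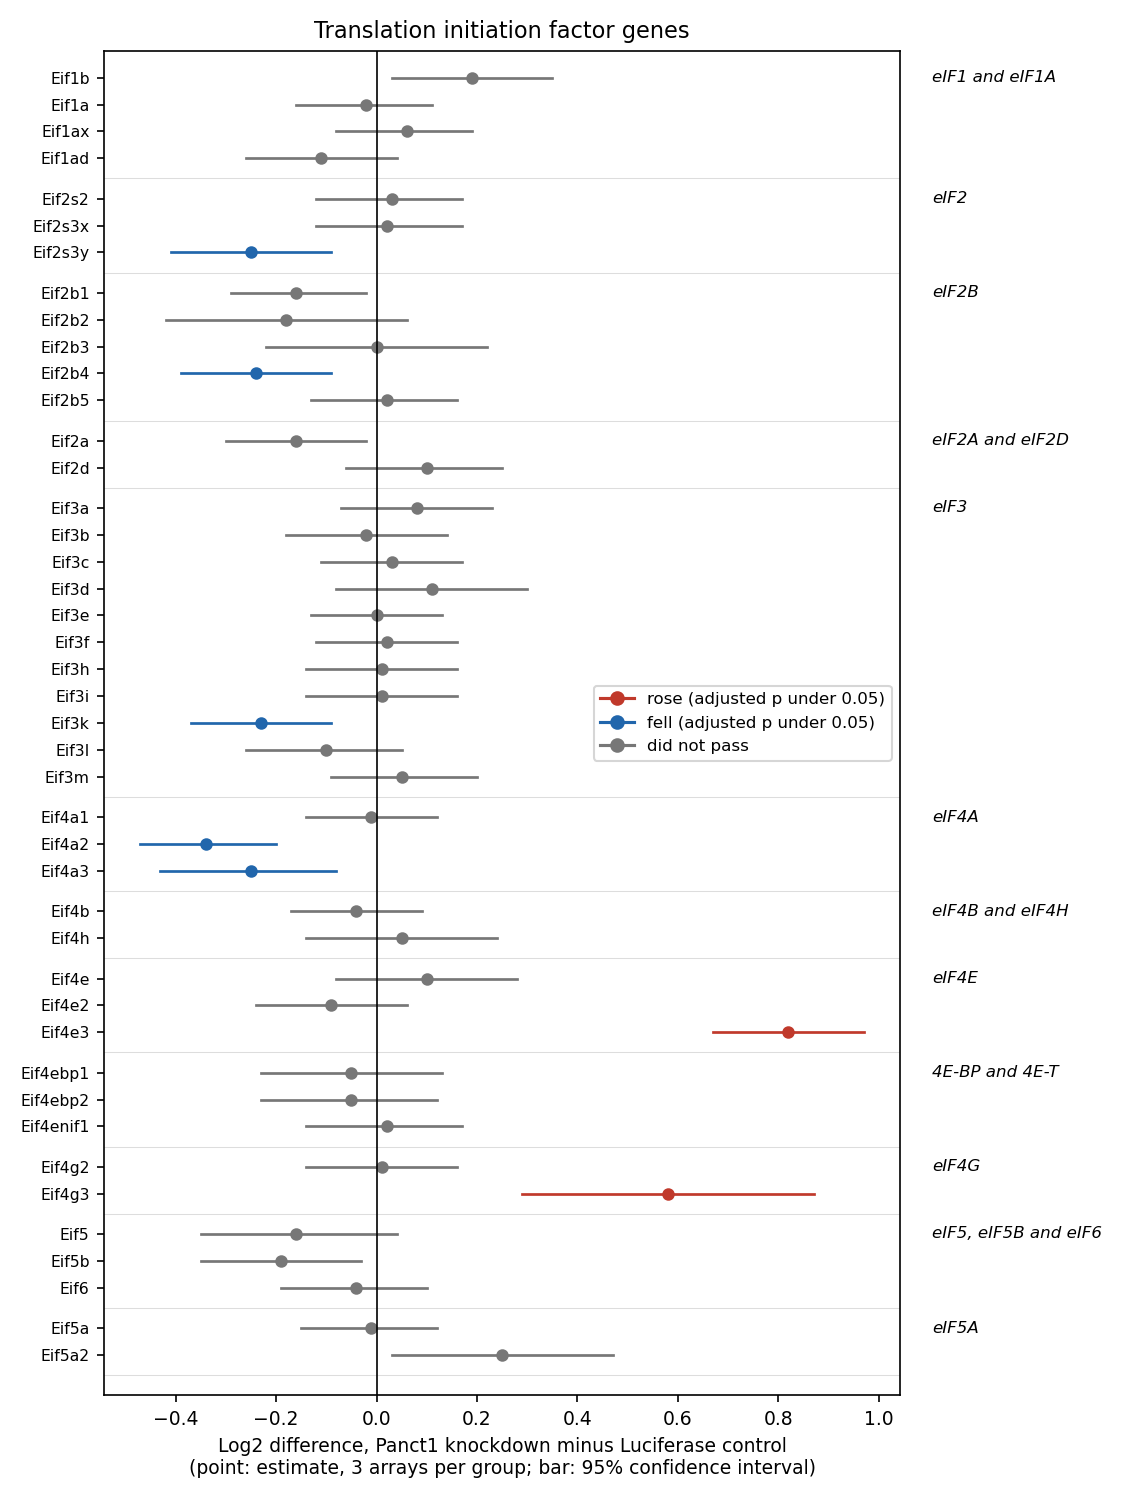
Log2 difference between Panct1 knockdown and Luciferase control for each of the 43 initiation factor genes, grouped by factor, with its 95% confidence interval from the limma fit (3 arrays per group). Eif4e3 and Eif4g3 lie at 0.82 and 0.58, the 5 genes that fell lie between -0.34 and -0.23, and those that did not pass lie between -0.19 and 0.25.

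Upstream sequence is shown for the risen and the fallen member with the largest change among those with a promoter window in the RefSeq table of build GRCm38.p6, Eif4g3 and Eif4a2. Eif4e3 had no entry. Each run gives the 250 bases before an annotated start, 5′ to 3′ on the gene's strand, with matches to the motifs searched in capitals. The Eif4a2 window is chr16:23107218-23107467 on the + strand and the Eif4g3 window is chr4:137993205-137993454 on the + strand, the first of 2 listed.
Eif4a2: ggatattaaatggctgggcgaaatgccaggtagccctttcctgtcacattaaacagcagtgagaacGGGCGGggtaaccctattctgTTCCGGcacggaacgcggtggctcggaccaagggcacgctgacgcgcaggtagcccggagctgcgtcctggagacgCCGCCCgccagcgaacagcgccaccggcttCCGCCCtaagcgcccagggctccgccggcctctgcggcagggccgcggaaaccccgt
Eif4g3: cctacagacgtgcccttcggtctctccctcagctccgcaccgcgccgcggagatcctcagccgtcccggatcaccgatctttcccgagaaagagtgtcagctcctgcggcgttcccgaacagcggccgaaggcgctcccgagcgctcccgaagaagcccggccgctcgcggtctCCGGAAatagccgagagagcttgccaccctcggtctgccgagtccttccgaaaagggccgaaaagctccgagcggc
The motifs, searched on both strands and each counted on its own where they overlapped, were the GC box GGGCGG, the CCAAT box CCAAT, the E-box CACGTG, the ETS core CCGGAA, the cAMP response element TGACGTCA and the TATA box TATAAA. The Eif4a2 window held 3 GC boxes and 1 ETS core, and the Eif4g3 window held 1 ETS core. A promoter window was listed for 34 of the 43 members, with 46 windows in all, some of them overlapping starts of 1 gene. A GC box was in 69.6% of these windows and in 32.7% of all 32851 windows of the table, which include those of noncoding genes. The ETS core was in 34.8% against 12.0%, the E-box in 21.7% against 6.02%, the CCAAT box in 23.9% against 33.8% and the TATA box in 6.52% against 12.4%. The cAMP response element was in 0 of the 46 windows and in 1.55% of all. These shares describe letters in the windows and were not tested.

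The cap-binding proteins differed among themselves. Eif4e3, which encodes an atypical cap-binding relative of eIF4E, read 7.74, 7.80 and 7.76 on the Panct1 knockdown arrays and 7.00, 6.98 and 6.86 on the Luciferase control arrays. Every knockdown array was above every control array. The mean rose from 6.95 ± 0.08 (SD, n = 3) to 7.77 ± 0.03, a 1.77-fold rise (log2 difference 0.82, SE 0.065; limma adjusted p = 5.33e-05). Its second probe set read 7.45, 7.49 and 7.78 in knockdown and 6.35, 6.25 and 6.39 in controls, a log2 difference of 1.24 (limma adjusted p = 9.91e-05 over all probe sets), so both sets for this gene rose, without overlap. Eif4e, the main cap-binding protein, did not pass, with a log2 difference of 0.10 (95% confidence interval -0.08 to 0.28). Its 4 probe sets ranged from -0.26 to 0.10. The lowest of them passed as fallen over all probe sets (adjusted p = 0.0468 in limma), but its mean signal of 4.80 lay close to the lower quartile of the arrays, 4.65 to 4.70. Eif4e2, which encodes the cap-binding repressor 4EHP, stood at -0.09 (-0.24 to 0.06) and did not pass. Its 5 probe sets ranged from -0.25 to -0.07, and none passed over all probe sets. The lowest of the 5, with a mean signal of 8.78, had no overlap between the groups (limma adjusted p = 0.0780 over all probe sets).

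Genes for the proteins that hold eIF4E in check did not pass. Eif4ebp1, the first of the 4E-BP genes, read 13.03, 13.17 and 13.30 in knockdown and 13.23, 13.18 and 13.25 in controls, a log2 difference of -0.05 with an interval of -0.23 to 0.13. The groups overlapped. Eif4ebp2 also differed by -0.05 (-0.23 to 0.12), and Eif4enif1, whose product 4E-T carries eIF4E into the nucleus and into P-bodies, differed by 0.02 (-0.14 to 0.17). The 3 probe sets for Eif4ebp1 ranged from -0.14 to -0.05 and the 5 for Eif4ebp2 from -0.19 to 0.23. None of these passed over all probe sets. A probe set assigned to Eif4ebp3 together with the neighbouring gene Ankhd1 differed by 0.02 and is counted for neither gene.

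Among the scaffolds, Eif4g3, which encodes eIF4GII, read 9.27, 9.55 and 9.44 in knockdown and 8.92, 8.55 and 9.04 in controls. The groups did not overlap, although control replicate 2 lay well below the other controls. The mean rose from 8.84 ± 0.26 (SD, n = 3) to 9.42 ± 0.14, a 1.50-fold rise (log2 difference 0.58, SE 0.13; limma adjusted p = 0.00999). Without Luciferase control replicate 2 the log2 difference was 0.44 and still passed (adjusted p = 0.0176). The rise rests on 1 of 4 probe sets: the others, with mean signals of 7.28, 5.29 and 5.14, differed by -0.02, -0.01 and 0.08. With the mean of all 4 sets the log2 difference was 0.16 and the call was lost (limma adjusted p = 0.102). Eif4g2, which encodes the scaffold DAP5 that lacks the eIF4E-binding part, differed by 0.01 (-0.14 to 0.16), and Eif4g1 had no probe set of its own in the table and was not analysed here.

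The helicase genes also split. Eif4a2, an eIF4A helicase, read 12.91, 12.90 and 12.81 in knockdown and 13.21 on each of the 3 control arrays. All knockdown arrays were lower than all controls. The mean fell from 13.21 ± 0.00 (SD, n = 3) to 12.87 ± 0.06, 1.26-fold lower (log2 difference -0.34, SE 0.061; limma adjusted p = 0.00388), through the only probe set it had. Eif4a1, its close paralogue, read 14.41 on all 3 knockdown arrays and 14.45, 14.41 and 14.41 in controls, a log2 difference of -0.01 with an interval of -0.14 to 0.12. These signals are near the top of the scale, where the brightest probe set reached 14.98, and whether changes are compressed there was not tested. Whether the probes of one paralogue also bind the other was not tested. Eif4a3, the helicase of the exon junction complex that is deposited on spliced mRNA, read 5.28, 5.17 and 5.31 in knockdown and 5.53, 5.60 and 5.39 in controls, and fell by 0.25 (log2, SE 0.076; limma adjusted p = 0.0407). These signals are below every array's median of 6.07 to 6.09. A probe set assigned to both Eif4a3 and the gene Gm5576 read 13.08 to 13.26 in knockdown and 13.14 to 13.20 in controls, with a difference of -0.01. The Eif4a3 call held without Luciferase control replicate 3 (limma adjusted p = 0.0262) and was lost without each other array, at adjusted p of 0.0563 to 0.149. The helicase cofactors Eif4b and Eif4h differed by -0.04 and 0.05, and neither passed.

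**Figure D2:**
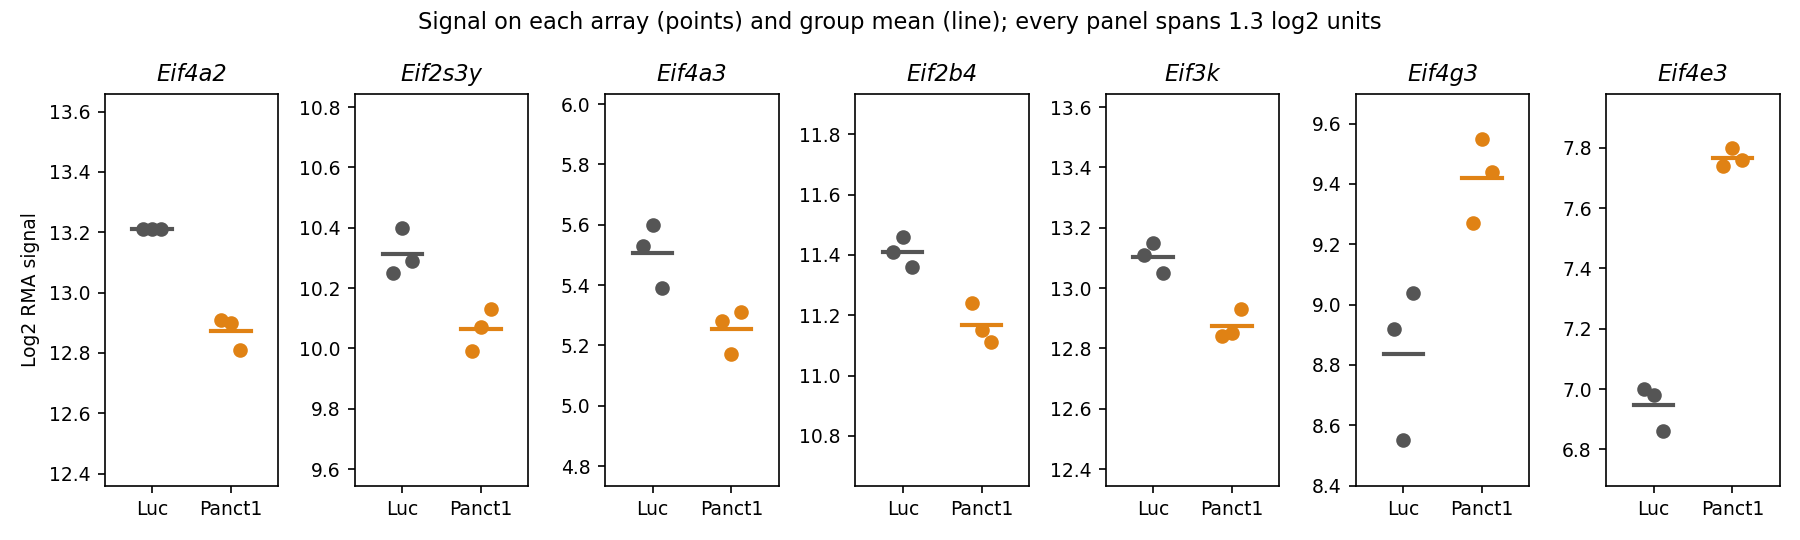
Log2 signal on each Luciferase control (Luc) and Panct1 knockdown array for the 7 initiation factor genes past the threshold, with a line at each group mean; each panel has its own axis of the same span. The 3 knockdown arrays lie on one side of the 3 control arrays in every panel, and the gap is widest for Eif4e3, from 7.00 to 7.74.

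For eIF2, Eif2s3y, the Y-linked gene of the gamma subunit, read 9.99, 10.07 and 10.13 in knockdown and 10.25, 10.40 and 10.29 in controls. The groups did not overlap. It fell by 0.25 (log2, SE 0.070, n = 3 per group; limma adjusted p = 0.0305). The call held without Panct1 knockdown replicate 3 (limma adjusted p = 0.0371) and was lost without each other array, at adjusted p of 0.0506 to 0.0923. Its second probe set, with a mean signal of 3.69, under the arrays' lower quartile, differed by 0.00. With the mean of both sets the log2 difference was -0.12 and did not pass (limma adjusted p = 0.174). Uty, another Y-linked gene, looked at after these values were seen, read 7.34, 7.34 and 7.30 in knockdown and 7.19, 7.39 and 7.41 in controls, a log2 difference of 0.00. Kdm5d, also Y-linked and looked at in the same way, differed by -0.18 and did not pass, with mean signals of 4.60 in knockdown and 4.78 in controls, close to the arrays' lower quartile. The X-linked copy Eif2s3x differed by 0.02 (-0.12 to 0.17) and Eif2s2, the beta subunit, by 0.03 (-0.12 to 0.17), and neither passed. Another Eif2s3x probe set read 9.97, 10.12 and 10.15 in knockdown and 9.83, 9.93 and 9.89 in controls, without overlap. It differed by 0.20 and did not pass (limma adjusted p = 0.124 over all probe sets). The remaining Eif2s3x set differed by 0.04. Eif2s1, the alpha subunit that the eIF2 kinases phosphorylate, had no probe set of its own and was not analysed here.

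In eIF2B, the exchange factor with 5 subunits, 1 gene fell and 4 did not pass. Eif2b4, the delta subunit, read 11.24, 11.15 and 11.11 in knockdown and 11.41, 11.46 and 11.36 in controls, and fell by 0.24 (log2, SE 0.065; limma adjusted p = 0.0260), with no overlap. It no longer passed without knockdown replicate 2, knockdown replicate 3, control replicate 1 or control replicate 2, at adjusted p of 0.0769 to 0.0895. Eif2b1 differed by -0.16, with 11.19, 11.11 and 11.17 in knockdown against 11.30, 11.34 and 11.30 in controls, and did not pass (limma adjusted p = 0.0950) although its arrays did not overlap. Eif2b2, Eif2b3 and Eif2b5 differed by -0.18, 0.00 and 0.02. Of the factors that can deliver initiator tRNA without eIF2, Eif2a differed by -0.16 (adjusted p = 0.106 in limma) and Eif2d by 0.10, and neither passed.

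Of the eIF3 subunits, 1 of the 11 measured fell and 10 lay between -0.10 and 0.11 without passing. Eif3k, a small peripheral subunit, read 12.84, 12.85 and 12.93 in knockdown and 13.11, 13.15 and 13.05 in controls. All controls were higher. It fell by 0.23 (log2, SE 0.063; limma adjusted p = 0.0282). It no longer passed without knockdown replicate 1, knockdown replicate 2, control replicate 1 or control replicate 2, at adjusted p of 0.0726 to 0.102. The core subunit genes Eif3a, Eif3b and Eif3c differed by 0.08, -0.02 and 0.03. The other differences were 0.11 for Eif3d, 0.00 for Eif3e, 0.02 for Eif3f, 0.01 each for Eif3h and Eif3i, -0.10 for Eif3l, which partners Eif3k, and 0.05 for Eif3m. Eif3e read 13.59, 13.61 and 13.65 in knockdown and 13.59, 13.64 and 13.62 in controls. Of 4 probe sets for Eif3a, the dimmest, with a mean signal of 7.65, rose by 0.42 (limma adjusted p = 0.0307 over all probe sets), while the others differed by 0.04 to 0.08 and did not pass. For Eif3j1 and Eif3j2, which share their 3 probe sets, the differences were -0.21, -0.03 and 0.03, and none passed.

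The scanning and late factors did not pass. Eif1b, a paralogue of the start codon gatekeeper eIF1, read 10.06, 10.20 and 10.24 in knockdown and 9.92, 10.03 and 9.98 in controls, a log2 difference of 0.19 (limma adjusted p = 0.0890) with no overlap. Eif1a and Eif1ax, genes for eIF1A, differed by -0.02 and 0.06, and Eif1ad by -0.11. Eif5, the GTPase activator, differed by -0.16 (-0.35 to 0.04), Eif5b by -0.19 (-0.35 to -0.03; limma adjusted p = 0.0928) and Eif6, which keeps the subunits apart, by -0.04. The sign for Eif5 rests on the probe set used, with a mean signal of 11.82. Its other sets, at 11.79, 11.48, 11.16 and 7.03, differed by 0.05, 0.14, 0.23 and 0.02, and none passed over all probe sets. Eif5a, whose product carries the modified amino acid hypusine and acts mainly in elongation, differed by -0.01. Its paralogue Eif5a2 read 8.22, 8.24 and 8.06 in knockdown and 7.73, 7.99 and 8.05 in controls, a log2 difference of 0.25 that did not pass (adjusted p = 0.0950 in limma). Its second probe set, 8.06, 7.96 and 7.98 against 7.54, 7.75 and 7.74, rose by 0.32 (limma adjusted p = 0.0266 over all probe sets). A further probe set is assigned to 3 genes, Eif1a among them with Gm4027 and BB287469. It read 8.79, 8.35 and 8.00 in knockdown and 9.72, 9.98 and 10.01 in controls and fell by 1.52 (limma adjusted p = 7.50e-04 over all probe sets), with no overlap between the groups. Which of the 3 genes it reads is not known from the table. Eif1, Eif3g and Eif4e1b had no probe set with their symbol in the table and were not analysed here.

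**Figure D3:**
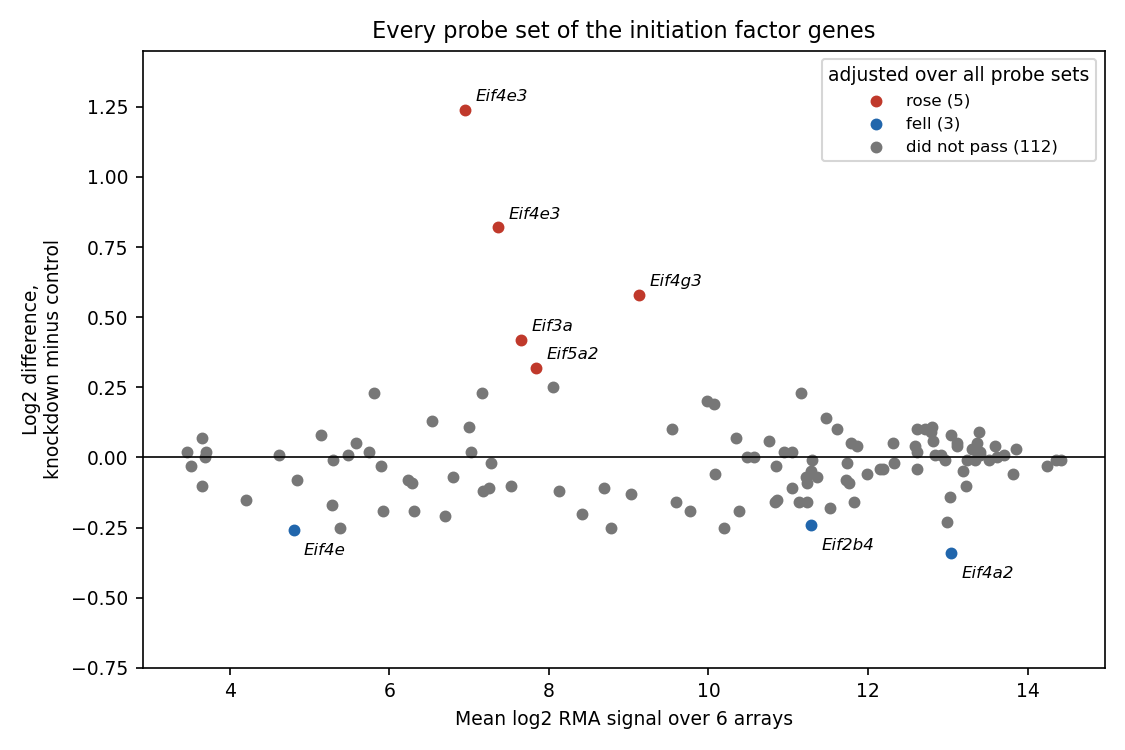
Each of the 120 probe sets with an initiation factor gene as their 1 symbol, by mean log2 signal over the 6 arrays and log2 difference between knockdown and control; colours mark sets past an adjusted p under 0.05 over all probe sets. Of the 8 that passed, 5 rose, among them both sets for Eif4e3, and 3 fell, for Eif4a2, Eif2b4 and a dim set for Eif4e.

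Of the 120 probe sets, 8 passed over all probe sets (6.67%, against 14.6% of all probe sets). For the 36 members that did not pass, the fit bounds the change in the brightest probe set only. For 31 of them its 95% confidence interval lay within a 1.25-fold change either way, 0.32 on the log2 scale. The exceptions were Eif1b, Eif2b2, Eif5, Eif5b and Eif5a2. Other probe sets of the 31 genes are not bounded by these intervals: the dimmest set for Eif3a differed by 0.42. The median SE was 0.066 for the members and 0.078 for all genes.

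Paralogues of 1 factor were set side by side in 7 pairs chosen after their values were seen. The signal difference between the paralogues of a pair was taken within each array. Its group mean was higher in knockdown by 0.72 for Eif4e3 against Eif4e, by 0.57 for Eif4g3 against Eif4g2 and by 0.26 for Eif5a2 against Eif5a. It was lower for Eif4a2 against Eif4a1, at -0.32, and for Eif2s3y against Eif2s3x, at -0.27. It was -0.08 for Eif1a with Eif1ax and 0.00 for Eif4ebp2 with Eif4ebp1. The sets used for Eif2s3x, Eif4g2, Eif5a and Eif4ebp1 are of the class marked as cross-hybridising. Whether they bind the paralogue was not tested. Eif4a1 and Eif5a have signals near the top of the scale, and whether changes are compressed there was not tested. With 3 arrays against 3 an exact permutation test cannot go below p = 0.10, and as the pairs were chosen on their values none was run.

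**Figure D4:**
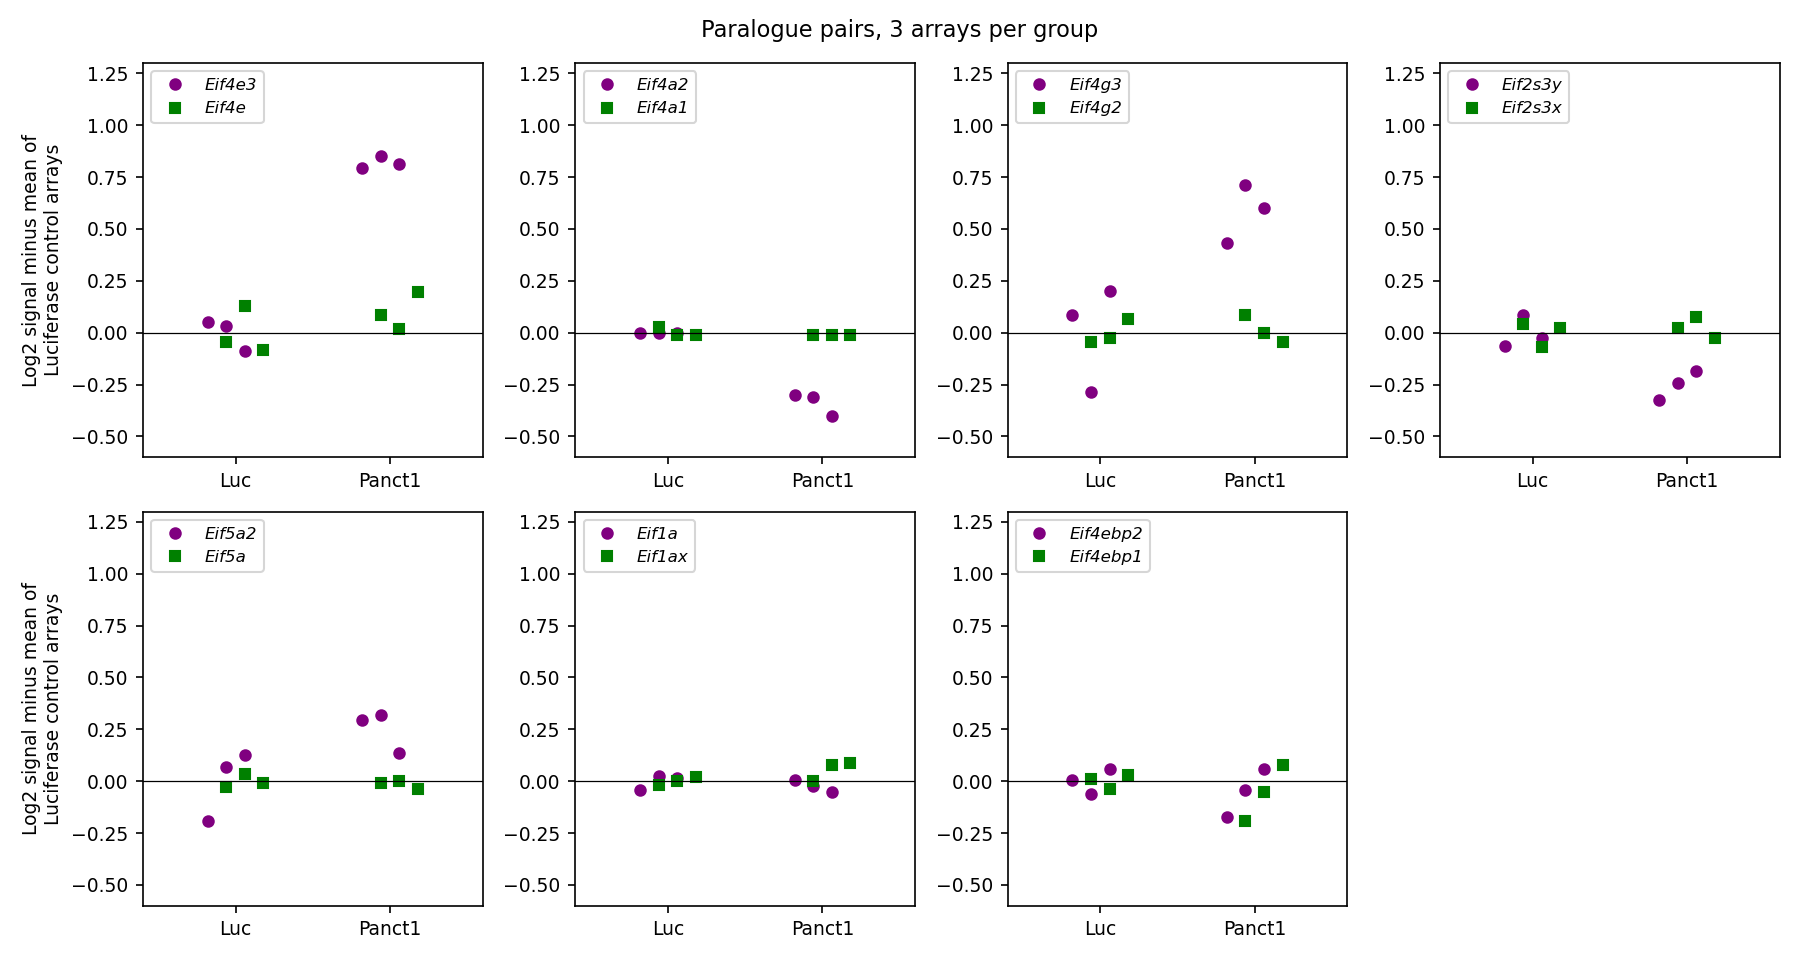
Log2 signal on each array minus the gene's mean over the Luciferase control arrays, for 7 paralogue pairs (3 Luc and 3 Panct1 arrays each; circles and squares mark the paralogues). Eif4e3 and Eif4g3 lie above their partners in knockdown and Eif4a2 and Eif2s3y below, while Eif1a with Eif1ax and the 4E-BP genes stay close together.

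Other genes of translation and its control were read from 6 lists. Of 83 measured genes 9 rose and 8 fell, 20.5% against 24.2% of all genes, with a median difference of 0.03. Without Luciferase control replicate 1 the count of 17 became 11. Of 10 genes controlling eIF2 phosphorylation 1 rose and 2 fell. Eif2ak4, the amino acid sensor kinase GCN2, rose by 0.43 on the log2 scale (limma adjusted p = 0.00530), Eif2ak1, the haem-regulated kinase, fell by 0.32 (adjusted p = 0.0154), and Ppp1r15a, the phosphatase subunit GADD34, fell by 0.32 (adjusted p = 0.00599). With the mean of their probe sets the calls for both kinases were lost, at 0.07 for Eif2ak4 and -0.04 for Eif2ak1.

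In the list of mTORC1, the kinase complex that phosphorylates 4E-BPs, 6 of 22 genes rose and 3 fell, where 24.2% of all genes passed. Without Panct1 knockdown replicate 2, Panct1 knockdown replicate 3 or Luciferase control replicate 1 the list held 4 rises and 0 falls. Without Luciferase control replicate 3 it held 6 rises and 0 falls, and under a replicate block 3 rises and 0 falls. Adjusted over all probe sets it held 5 rises and 0 falls. Falls remained in the other settings. Among these were 5 rises and 3 falls without Panct1 knockdown replicate 1, and 4 and 2 without Luciferase control replicate 2. Weights per array gave 6 rises and 5 falls, and the mean of probe sets 4 and 5. Its inhibitor Ddit4 rose from 11.22 ± 0.26 (SD, n = 3) to 12.12 ± 0.07, a log2 difference of 0.90 (limma adjusted p = 7.55e-04). Sesn3, a sestrin upstream of the complex, rose by 0.85 (adjusted p = 0.00161), and the inhibitory subunit Deptor by 0.32 (0.00970). Lamtor5, part of its lysosomal anchor, rose by 0.24 (limma adjusted p = 0.0166), but not without Panct1 knockdown replicate 2 (0.0611) or Luciferase control replicate 1 (0.0688). The other list members past the threshold, named after their values were seen, included both activating and inhibitory parts. The kinase gene Mtor itself rose by 0.30 (limma adjusted p = 0.0272) and its subunit gene Mlst8 fell by 0.26 (adjusted p = 0.0396). Of the inhibitory TSC complex, Tsc1 rose by 0.31 (limma adjusted p = 0.0414) and Tsc2 fell by 0.24 (adjusted p = 0.0325). Lamtor3, of the same anchor as Lamtor5, fell by 0.21 (adjusted p = 0.0390 in limma). Among 15 partners of the mRNA ends Paip1, which binds the poly(A)-binding protein, rose by 0.53 (limma adjusted p = 5.58e-04) and 0 fell. Of 8 elongation factors Eefsec, the selenocysteine factor, rose by 0.33 (adjusted p = 0.00819 in limma) and 0 fell. Of 7 termination and recycling factors Mcts2 fell by 0.81 (limma adjusted p = 0.00180). It is a retrogene copy of Mcts1, so its probes may share that gene's signal. Of 21 genes for aminoacyl-tRNA synthetases and their scaffold, which load the tRNAs, 0 rose and 2 fell, Farsa by 0.67 (limma adjusted p = 1.87e-04) and Kars by 0.27 (adjusted p = 0.0114). With the mean of its probe sets the Farsa difference was -0.35 and still passed (limma adjusted p = 0.00551). The Kars call was lost without Luciferase control replicate 1 (0.0526). Some list members that did not pass varied widely within the knockdown group: Aars read 11.72, 12.29 and 12.54 there, and Cars 9.13, 9.85 and 10.11. Without Panct1 knockdown replicate 1, the lowest for both, the list held 1 rise and 2 falls.

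The state of the cultures moved with the groups. For the counts of markers below, the shares over all genes were 12.9% rising and 11.3% falling. Of 10 trophectoderm markers 8 rose, and the mean signal of the list was 7.52 to 7.61 on control arrays and 8.72 to 8.74 on knockdown arrays. Of 8 embryonic stem cell markers 4 fell and 0 rose, from 12.88 to 12.98 in controls to 12.76 to 12.77 in knockdown, so the cells carried their labelled type's markers in both groups. The 4 that did not pass differed by 0.15 for Nanog, -0.14 for Sox2, -0.02 for Sall4 and 0.00 for Dppa5a, on the log2 scale. Fibroblast markers (2 of 7 rose, with means of 5.61 to 5.71 and 5.78 to 5.81) and primitive endoderm markers (1 of 7 rose, 2 fell, with means of 5.87 to 5.97 and 5.84 to 5.98) were dimmer. Elf5 of the trophectoderm and Lum of the fibroblast list had signals under the lower quartile on all 6 arrays. The part of these shifts in the initiation factor values was not tested. In such bulk RNA, fewer cells of a type and less RNA per cell cannot be told apart.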

How the data were processed

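RNA of 6 samples was hybridised to Affymetrix Mouse 430 version 2 arrays. The deposited log2 values, 1 per probe set and array, were made with GCOS 1.4 and RMA, per the submitters' processing notes. RMA corrects background, normalises arrays by quantiles and summarises probes. Which arrays were normalised together is not given in the sources used here. Groups came from the titles. The labels do not say that replicates were separate cultures, so p-values reflect only how these samples vary, and that variation may be technical. At most 3.20% of values were equal between any pair of arrays, so none was a copy. Arrays correlated at 0.997 to 0.998 within groups and 0.991 to 0.993 between them.

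After removal of 64 control sets, 45037 probe sets remained: 34945 had 1 symbol, 932 several and 9160 none. Symbols were updated by gene ID for 34741 through a RefSeq table of assembly GRCm38.p6. In R 4.3.3, limma 3.58.1 (lmFit, eBayes) with statmod 1.5.0 was fitted to 18193 genes, with the group as the only term, two-sided, with Benjamini-Hochberg adjustment over all genes, or over all probe sets where stated. The script was tested on simulated data. The number of arrays limits the precision. Members and lists were chosen with earlier results of these data known. Every member is named, those past the threshold with each array's value, and of each list at most the 4 genes past the threshold with the smallest p. For 16 list genes the table's older symbol was used. Uty, Kdm5d, Aars, Cars, 5 further mTORC1 genes, the 4 named embryonic stem cell markers and the paralogue pairs were added after values were seen. The alternatives were a replicate block, median centring, repeated quantile normalisation, an intensity trend together with robust variance, and weights per array. The others were a filter on dim probe sets, omission of single arrays, leaving out cross-hybridising probe sets, the mean of probe sets and adjustment over all probe sets.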

Additional observations from a re-analysis of the deposited data

How the results depend on the processing

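Of the 7 calls among initiation factor genes, those for Eif4e3 and Eif4a2 held in each of the 15 settings, and that for Eif4g3 was lost only with the mean of probe sets. Eif2b4, Eif3k, Eif2s3y and Eif4a3 lost theirs in 5 of 15, 6 of 15, 8 of 15 and 8 of 14 settings, always with the same sign. Of the 36 members that did not pass, 4 passed in some setting: Eif1b, Eif2b1, Eif2a and Eif5a2. The count of 7 became 4 when adjusted over all probe sets and 3 under a replicate block, and ranged from 3 to 6 on leaving out 1 array. It was 10 with weights per array (4 rose, 6 fell) and 8 with the intensity trend and robust variance, named the trend below. The 17 calls among other pathway genes became 11 with the replicate block and ranged from 11 to 17 without 1 array, and were 21 with the weights and 21 with the trend. Over all genes 3496 passed with the replicate block and 3133 to 3986 without 1 array, 5730 with the weights and 4780 with the trend, against 4404. The labels name no pairing of the replicates. Deviations of same-numbered arrays from their group means correlated at -0.26 to -0.10, which cannot show whether the samples were paired. Median centring and repeated quantile normalisation left the count at 7. Eif4a3 has no value without dim probe sets, and Eif3m and Eif5a have none without cross-hybridising sets. The number of arrays limits the precision, and compression of bright signals was not tested.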
